A study of Mus musculus with 3 samples.

Results

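The sites described here are places in the embryonic mouse cortex where Tbr2 and Neurog2 peaks overlapped but were not centred on each other. Each Neurog2 peak on chromosomes 1 to 19 was paired with the Tbr2 peak it overlapped by at least 1 bp and that held the most sequence tags. A pair was kept as offset when the midpoints of its peaks were more than 200 bp apart, the Tbr2 peak was under 1200 bp wide and the Neurog2 peak held fewer tags than the Tbr2 peak. This gave 115 offset pairs out of 2122 autosomal pairs and 2640 Neurog2 peaks in all. The 115 Neurog2 peaks lay on 111 Tbr2 peaks, so 4 Tbr2 peaks counted in 2 pairs each. No autosomal Neurog2 peak overlapped more than 1 Tbr2 peak, so the choice by tags never had to be made.

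Chromatin came from cerebral cortices of C57BL/6 embryos at E14.5, fixed with the protein-protein crosslinker DSG (2 mM, 45 min) and then with formaldehyde (1%, 10 min). The 3 libraries were a Tbr2 ChIP, a Neurog2 ChIP and input chromatin, from tissue of the same strain and age, and no genetic change or treatment is named in the labels. Each factor had 1 library, so no value below has a replicate error. The labels do not say how many embryos were pooled, and dissected cortex holds progenitors and neurons together, so a shared site need not mean that both proteins were bound in the same cell.

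Tbr2, the product of Eomes, is a T-box transcription factor that marks intermediate progenitors, the dividing cells that stand between radial glia and excitatory neurons. Neurog2 is a proneural basic helix-loop-helix factor that binds E-boxes as a dimer and drives progenitors of the cortex towards neuronal fate. Both act mostly through enhancers and promoters, where a ChIP peak marks a stretch of DNA around the place of crosslinking. The lists give the ends of each peak but no summit, so the midpoint stands here for its position.

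The pairs were chosen by position, width and tags. These values, and the fold changes and p-values that the peak caller derived from the same reads, are therefore given as description, with no test. The comparison set was the 1341 aligned pairs, which met the same width and tag conditions but had midpoints 200 bp apart or less. Together the sets held 1456 pairs, of which the offset ones were 7.90% (95% Wilson interval 6.62 to 9.40). Intervals cover counting error over pairs only. Tbr2 values were counted once per pair, and the 1341 aligned pairs lay on 1323 Tbr2 peaks. The sets shared 21 Tbr2 peaks, which held both an offset and an aligned Neurog2 peak. Comparisons of Tbr2 values below are therefore not between wholly separate peaks.

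Within the offset pairs, most Neurog2 peaks lay inside the Tbr2 peak, with midpoints typically about midway between its midpoint and its edge. Midpoint distances ran from 201 to 552.5 bp, with a median of 252 bp (interquartile range 217.5 to 296.5). Of the 115 pairs, 57 were at 250 bp or less, 30 were between 250 and 300 bp, and 28 were above 300 bp, among them 4 above 400 bp. Measured along the way from the Tbr2 midpoint to the Tbr2 edge, the Neurog2 midpoint stood at a median of 50.6% (interquartile range 44.5 to 61.0). The distance and width limits together set a lower bound on this share, and its smallest value was 33.7%. The midway position is therefore partly set by the rule. The median distance left to the Tbr2 edge was 242 bp, against 358 bp in aligned pairs. This value follows from the Tbr2 width and the midpoint distance, and the distance limit separates the sets. The Neurog2 midpoint was at the higher coordinate in 63 pairs and at the lower one in 52, which is 54.8% (45.7 to 63.6) at the higher. These coordinates follow the forward strand and say nothing of the direction of a gene.

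**Figure D1:**
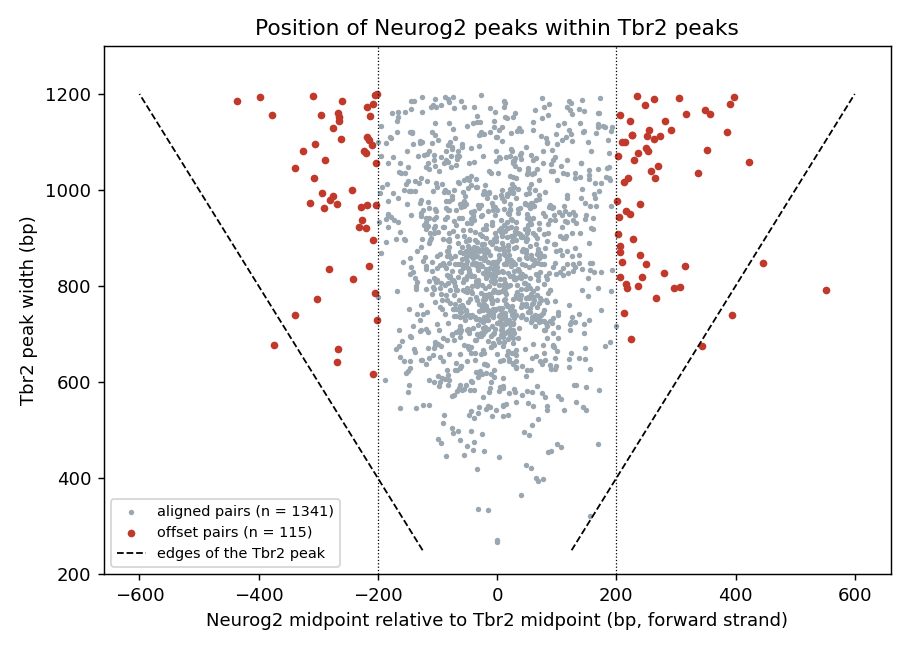
Each point is a pair, with the signed distance from the Tbr2 midpoint to the Neurog2 midpoint in bp on the horizontal axis and the width of the Tbr2 peak in bp on the vertical axis. The 115 offset pairs lie beyond the dotted lines at 200 bp to either side, and all but 5 of them stay between the dashed lines that mark the Tbr2 edges; the 1341 aligned pairs fill the middle.

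In 100 of the 115 pairs, 87.0% (79.6 to 91.9), the whole Neurog2 peak lay within the Tbr2 peak. The other 15 hung over the Tbr2 edge, by 1 to 346 bp with a median of 54 bp. In 5 of these the Neurog2 midpoint itself lay beyond the edge. Among aligned pairs 5 of 1341, 0.373% (0.159 to 0.870), overhung an edge. An overhang takes a Neurog2 peak far from the centre, so the rule favours it. It was found in 1 of 57 offset pairs at 250 bp or less and in 11 of 28 above 300 bp.

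The Neurog2 peak seldom reached the centre of the Tbr2 peak. It covered the Tbr2 midpoint in 1 of 115 offset pairs, against 1114 of 1341 aligned pairs, a contrast that the distance limit itself largely sets. The 1 exception was the widest Neurog2 peak of the set, 651 bp, at chr12:45504695-45505345, on the right part of a Tbr2 peak at chr12:45504162-45505350.

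Offset pairs tended to have wide Tbr2 peaks. Their median Tbr2 width was 1035 bp (interquartile range 858 to 1122), against 841 bp (729 to 965) in aligned pairs and 705 bp over all 14321 autosomal Tbr2 peaks. At least 1000 bp of width was found in 62 of 115 offset pairs, 53.9% (44.8 to 62.7), and in 262 of 1341 aligned pairs, 19.5% (17.5 to 21.7). Among pairs with a Tbr2 peak under 700 bp, 6 of 259 were offset, 2.32% (1.07 to 4.96). The share was higher in each wider class, up to 40 of 154, 26.0% (19.7 to 33.4), at 1100 bp or more. Beyond the limit, at 1200 bp or more and with the same tag condition, 241 of 409 pairs, 58.9% (54.1 to 63.6), had midpoints more than 200 bp apart. A wide peak has more room away from its midpoint, so distance and width are not separate measures.

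**Figure D2:**
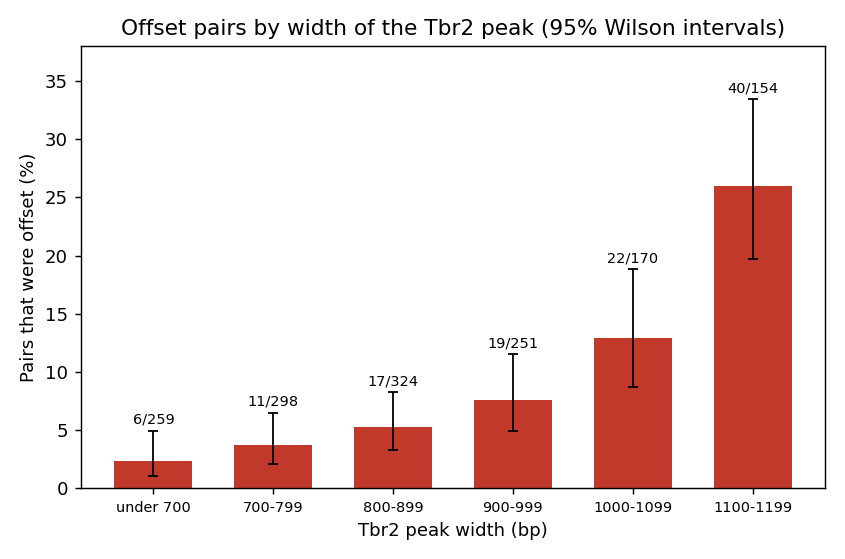
Bars give the percentage of pairs that were offset in 6 classes of Tbr2 width in bp, among pairs that met the width and tag conditions; error bars are 95% Wilson intervals and the numbers are offset pairs over all pairs. The share goes from 2.32% under 700 bp to 26.0% at 1100 bp or more.

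At the median, Neurog2 peaks of the offset pairs were slightly narrower and held slightly fewer tags than those of aligned pairs. They held 11 to 86 tags, with a median of 26 (interquartile range 18 to 37), against a median of 29 (21 to 42) in aligned pairs and 31 over all autosomal Neurog2 peaks. Their median width was 243 bp against 268 bp. Tags per 100 bp of peak were 10.7 at the median, against 11.0 in aligned pairs. Their fold changes ran from 5.25 to 21.7 with a median of 11.6, against 11.8. Of the 115, 6 ranked in the strongest 10% of the Neurog2 list by p-value, 5.22% (2.41 to 10.9), against 98 of 1341 aligned ones, 7.31% (6.03 to 8.83). The median rank was 1610 of 2640 in offset and 1396 in aligned pairs. The quartile ranges of these measures overlapped widely between the sets. The Neurog2 list ran to a deposited FDR of 0.1, and the Tbr2 list to 0.0233. Some offset Neurog2 peaks were near that limit, for example chr14:99210133-99210359 at 0.0961.

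The Tbr2 peaks of the offset pairs had a lower median fold change than those of aligned pairs, and over all widths their median tags differed little. Tags ran from 25 to 220 with a median of 71 (52.5 to 94.5), against 68 (46 to 95). The median Tbr2 fold change was 11.6 (8.53 to 18.1) in offset and 14.3 (10.1 to 21.3) in aligned pairs. Over all autosomal Tbr2 peaks the medians were 39 tags and a fold change of 9.61. The strongest 10% of the Tbr2 list held 30 of 115 offset pairs, 26.1% (18.9 to 34.8), and 378 of 1341 aligned ones, 28.2% (25.8 to 30.7).

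Since Tbr2 width differed between the sets, the same medians were also read within the 6 width classes. The Tbr2 fold change and the Tbr2 tags per 100 bp were lower in the offset pairs in all 6 classes. Tbr2 tags were lower in 5 classes and equal in the other, at 72 against 72 between 800 and 900 bp. At 1000 to 1100 bp they were 71.5 against 97, and from 1100 bp upwards 92.5 against 117.5. Between 1000 and 1100 bp the fold change was 12.2 against 17.3, and the tag density 6.79 against 9.19 per 100 bp. From 1100 bp upwards the values were 15.3 against 17.9 and 8.03 against 10.1. Neurog2 tags were lower in 5 of the 6 classes, for example 27 against 39 at 1000 to 1100 bp, and Neurog2 tags per 100 bp in all 6. Neurog2 fold change was lower in 4 classes and higher in the widest 2, where it was 11.8 against 11.6 and 13.1 against 11.4. The narrowest class held only 6 offset pairs, and no class was tested.

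In the offset pairs, the tags of the 2 peaks were weakly related. Spearman's rho between Neurog2 and Tbr2 tags was 0.28 over the 115 offset pairs and 0.50 over the 1341 aligned pairs. For fold changes it was 0.20 and 0.30. Midpoint distance had a rho of 0.07 with Neurog2 tags, -0.18 with Tbr2 tags and -0.24 with Tbr2 fold change within the offset set. These are descriptions across sites that share the same libraries, the tag condition bounds the tags of every pair, and the difference between the sets was not tested.

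**Figure D3:**
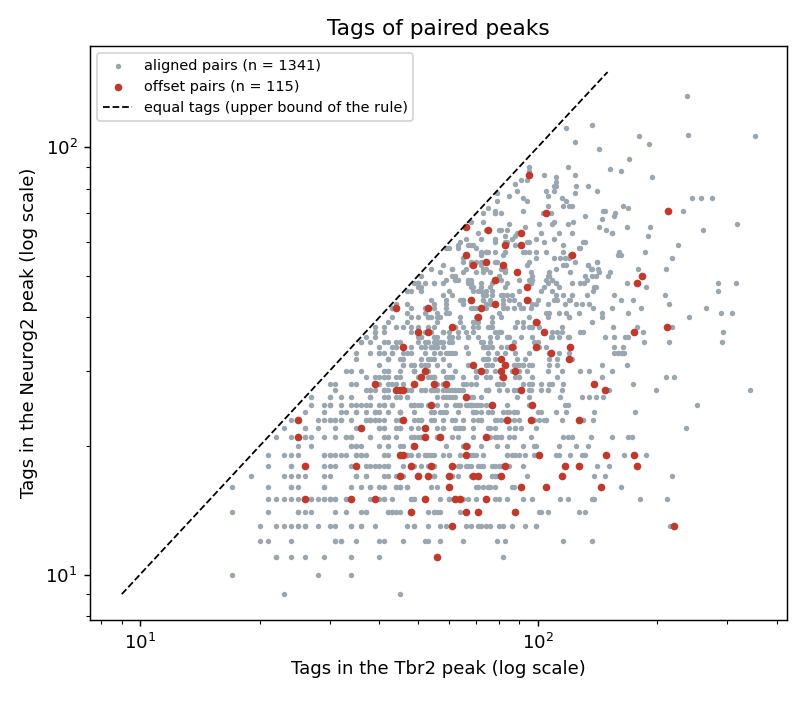
Each point is a pair, with the tags of its Tbr2 peak on the horizontal and the tags of its Neurog2 peak on the vertical axis, both logarithmic; the dashed line marks equal tags, which the rule sets as an upper bound. Offset pairs (red) spread over most of the range of aligned pairs (grey), from 25 to 220 Tbr2 tags and 11 to 86 Neurog2 tags.

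The 10 pairs with the largest midpoint distance included every pair above 400 bp. The most distant, 552.5 bp, joined a Neurog2 peak at chr7:122712337-122712714 (44 tags, fold change 6.09) to a Tbr2 peak at chr7:122711578-122712368 (68 tags, fold change 20.5). They shared only 32 bp, and 8.47% of the Neurog2 width was covered. The second, 446.5 bp, was at chr3:51609976-51610167 (23 tags) beside a Tbr2 peak at chr3:51609201-51610049 (84 tags, fold change 31.4), with 74 bp in common. At both sites the offset Neurog2 peak met only the end of the Tbr2 peak, which also held a Neurog2 peak with more tags near its midpoint. That peak was 69 bp from the midpoint with 49 tags and a fold change of 16.9 on chromosome 7, and 7 bp away with 34 tags and a fold change of 17.9 on chromosome 3.

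Most of the other pairs at the far end had the Neurog2 peak inside 1 end of a long Tbr2 peak, and some of these Tbr2 peaks also held another Neurog2 peak. At 436.5 bp, the Neurog2 peak at chr10:7757722-7757994 (31 tags, fold change 11.8) lay wholly within the left end of a Tbr2 peak 1186 bp wide (69 tags). That Tbr2 peak also held a Neurog2 peak 11.5 bp from its midpoint, with 42 tags and a fold change of 26.8. At 422.5 bp, the Neurog2 peak at chr11:71577530-71577689 had a fold change of 20.1 from 27 tags, while the Tbr2 peak at chr11:71576658-71577716 had a fold change of 6.19 from 44 tags. The Neurog2 peaks at chr8:87359000-87359306 (391.5 bp), chr1:4961295-4961502 (386 bp) and chr12:73405296-73405511 (378 bp) were also wholly inside. The Tbr2 peak on chromosome 8 held another Neurog2 peak at 208 bp, with 47 tags against 44. At the 386 bp site another Neurog2 peak stood at 146 bp, with 30 tags against 20. The Tbr2 peaks on chromosomes 11 and 12 held no other Neurog2 peak. The peak at chr4:8838286-8838474 (394 bp, 18 tags) reached 119 bp beyond its Tbr2 peak, which had 35 tags and held no other Neurog2 peak. The remaining 2, at 398 and 397.5 bp, stood on either side of the midpoint of a single Tbr2 peak on chromosome 1, described with the sites of several Neurog2 peaks.

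**Figure D4:**
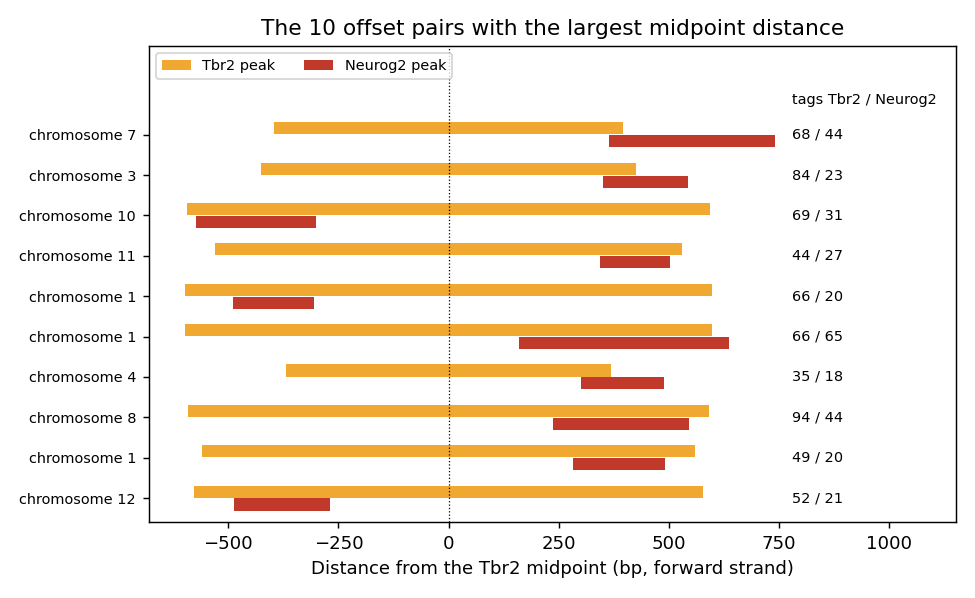
The 10 offset pairs with the largest midpoint distance, drawn to scale in bp from the midpoint of each Tbr2 peak (orange) with its Neurog2 peak (red); numbers at the right are the tags of both peaks. The distances go from 552.5 bp in the first row to 378 bp in the last, and 4 of the 10 Neurog2 peaks pass the end of the Tbr2 peak.

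The offset pairs with the most Tbr2 tags lay in the strongest part of the Tbr2 list, and their Neurog2 peaks ranged from weak to strong. The first, at chr7:96288967-96290047, had 220 Tbr2 tags, a fold change of 56.8 and rank 57 of the Tbr2 list by p-value. Its offset Neurog2 peak, at chr7:96289217-96289351, had 13 tags and ranked 2289. The second, the chromosome 12 site of the 651 bp Neurog2 peak, had 213 Tbr2 tags with a fold change of 54.8, and 71 Neurog2 tags with a fold change of 12.2. It was the only site among both the 10 with most Tbr2 tags and the 10 with most Neurog2 tags.

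The next were at chr9:15617427-15618540 with 212 Tbr2 and 38 Neurog2 tags, and chr5:39572169-39573354 with 183 and 50. Tbr2 peaks at chr6:60992792-60993987 (178 tags) and chr9:41938814-41939969 (175 tags) each counted for 2 pairs. The last of the 10 were at chr2:105632390-105633494 (149 Tbr2 and 19 Neurog2 tags) and chr14:122722777-122723973 (148 and 27). All 10 midpoint distances were between 204.5 and 308.5 bp.

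Among the 10 pairs with the most Neurog2 tags, the first was at chr8:125189011-125189442, with 86 Neurog2 tags and a fold change of 13.0 against 95 Tbr2 tags. The Neurog2 peak at chr15:99494499-99494886 (70 tags, fold change 17.1) had the best rank of the set in the Neurog2 list, 104. On chromosome 1 the peak at chr1:135959779-135960255 had 65 Neurog2 against 66 Tbr2 tags, the closest of the offset pairs to the tag condition. A pair on chromosome 18 had 64 Neurog2 and 75 Tbr2 tags. The others were at chr7:81062952-81063297 (63 tags), chr10:39379740-39380242 (59), chr14:55671432-55671774 (59), chr12:109479075-109479453 (56) and chr19:41175840-41176246 (56). The Tbr2 peaks of these last 5 had 66 to 122 tags.

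A second Neurog2 peak in the same Tbr2 peak was found at 31 of the 115 offset pairs, 27.0% (19.7 to 35.7), and at 57 of 1341 aligned pairs, 4.25% (3.30 to 5.47). The 31 pairs lay on 27 Tbr2 peaks, and the other 84 Tbr2 peaks held a single Neurog2 peak. The share was 12 of 57 at distances up to 250 bp and 13 of 28 above 300 bp. Separate peaks within a Tbr2 peak of this width cannot all lie at its midpoint, so the distance limit favours such sites, and the difference from aligned pairs was not tested. The offset pairs with a single Neurog2 peak had medians close to those of all offset pairs, with a distance of 245.75 bp, 71.5 Tbr2 tags and 25.5 Neurog2 tags.

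At the 27 sites the midpoints of the Neurog2 peaks stood on both sides of the Tbr2 midpoint in 25 cases and on 1 side in 2. In 9 of the 27 the Tbr2 midpoint fell in the gap between Neurog2 peaks. The outermost Neurog2 midpoints of a site were a median of 384 bp apart (180.5 to 795.5). The 28 gaps between neighbouring Neurog2 peaks, measured from edge to edge, ran from 5 to 309 bp with a median of 80.5 bp, and 15 were under 100 bp.

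At 23 sites there were 2 Neurog2 peaks of which 1 belonged to an offset pair. The midpoint of the partner lay at a median of 79 bp from the Tbr2 midpoint, within 100 bp in 13 cases, and on its opposite side in 21. Side refers to midpoints only, and a partner could itself cover the Tbr2 midpoint. At chr9:26956834-26957165, for example, the partner was 332 bp wide and 5.5 bp from the Tbr2 midpoint. The partner had more tags in 16 cases, the same number in 2 and fewer in 5, with medians of 31 tags for partners and 25 for the offset peaks. The tag condition bounds the offset peak but not the partner. Partners at chr13:52015720-52016259 (103 tags against 69 for Tbr2), chr4:141423426-141423806 (54 against 53) and chr4:97285360-97285659 (39 against 34) exceeded their Tbr2 peak, so the rule fixed the order there. In 2 cases the partner was itself over 200 bp away, and only the tag condition kept it out of the offset set. The fold change of the partner was higher in 13 cases, equal in 1 and lower in 9. At chr7:96288967-96290047 the partner was 2.5 bp from the Tbr2 midpoint with 29 tags, against 13 tags for the offset peak, and both had a fold change of 12.5. At chr8:125188985-125190047 the order was the other way round, with 86 tags at the offset peak and 27 at the partner 61 bp from the midpoint.

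**Figure D5:**
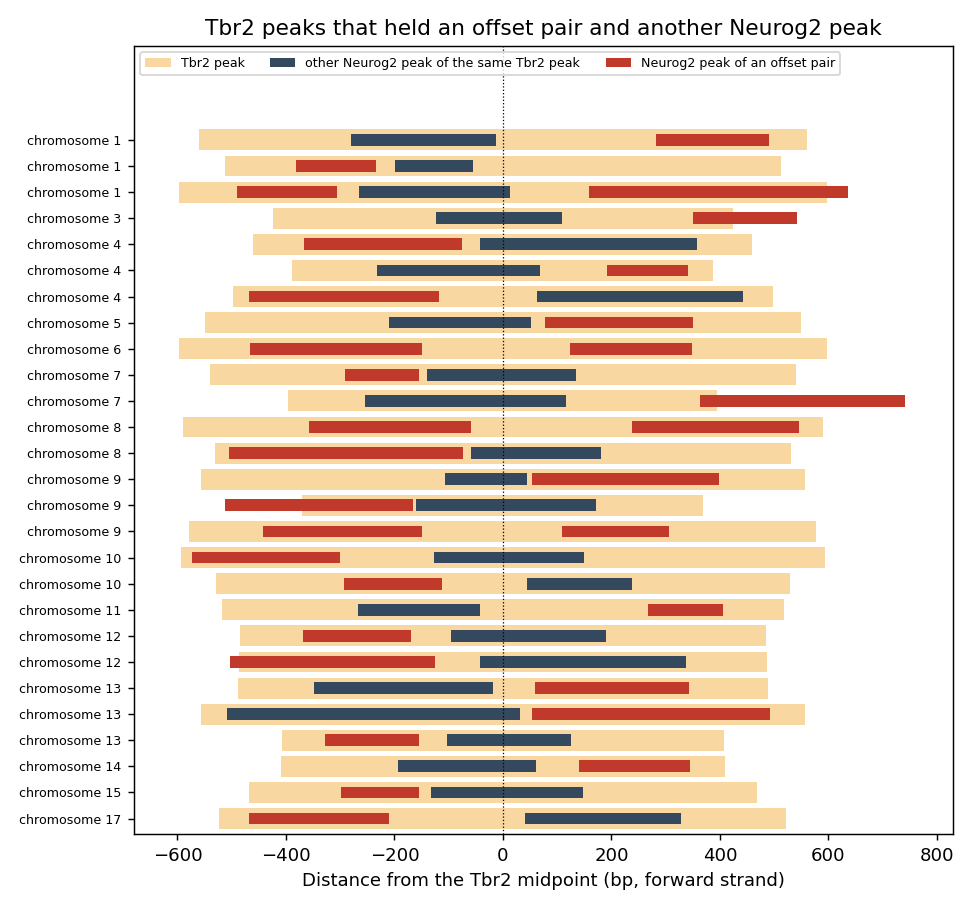
The 27 Tbr2 peaks (pale orange) that held an offset pair and at least 1 more Neurog2 peak, each drawn to scale in bp from its own midpoint; red bars are Neurog2 peaks of offset pairs and dark bars the other Neurog2 peaks of the same Tbr2 peak. In 25 of the 27 rows the midpoints of the Neurog2 peaks stand on both sides of the dotted midpoint line, and in 9 rows that line falls in a gap between Neurog2 peaks.

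In 4 Tbr2 peaks 2 offset Neurog2 peaks stood on opposite sides of the midpoint. At chr6:60992792-60993987 they were 308.5 bp to the left with 48 tags and 235.5 bp to the right with 18 tags, under a Tbr2 fold change of 36.7. At chr9:41938814-41939969 they were 296 bp to the left (37 tags) and 207 bp to the right (19 tags), under a Tbr2 fold change of 26.3. At chr8:87358172-87359351 they were 208 bp to the left (47 tags) and 391.5 bp to the right (44 tags). In each of these 3 sites the Tbr2 midpoint lay between the Neurog2 peaks.

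The fourth, at chr1:135959023-135960216, was the only one of the 27 with 3 Neurog2 peaks. They stood 398 bp (20 tags) and 126.5 bp (26 tags) to the left and 397.5 bp (65 tags) to the right of the midpoint. The Tbr2 peak there had 66 tags and a fold change of 6.32, low among the offset pairs.

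Other Tbr2 peaks were about as near to offset as to aligned pairs. The median gap to the nearest other Tbr2 peak was 17.5 kb in both sets. Another Tbr2 peak lay within 5 kb, edge to edge, of 28 of 115 offset pairs, 24.3% (17.4 to 32.9), and of 373 of 1341 aligned pairs, 27.8% (25.5 to 30.3). Within 500 bp the counts were 6 of 115 and 89 of 1341, or 5.22% (2.41 to 10.9) and 6.64% (5.42 to 8.10). The shortest gaps were 107 bp at chr2:38203817-38204545 and 164 bp at chr8:125188985-125190047.

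Where another Tbr2 peak lay within 5 kb, it more often stood on the side away from the Neurog2 peak. The nearest Tbr2 peak was on the Neurog2 side in 7 of 28 offset pairs, 25.0% (12.7 to 43.4), and in 205 of 373 aligned pairs, 55.0% (49.9 to 59.9). Within 10 kb the offset counts were 14 on the Neurog2 side and 27 on the other, and within 20 kb they were 25 and 41. Of all 115 offset pairs, 49 had their nearest Tbr2 peak on the Neurog2 side, 42.6% (34.0 to 51.7). The side was examined after other values had been seen, the counts are small, and the difference was not tested.

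Neurog2 peaks outside the Tbr2 peak of the pair were found within 5 kb of 13 of 115 offset pairs, 11.3% (6.73 to 18.4), and of 102 of 1341 aligned pairs, 7.61% (6.31 to 9.15). The median gap to the nearest such Neurog2 peak was 102 kb for offset and 173 kb for aligned pairs. The intervals of the 2 shares overlapped.

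Offset pairs were spread over all 19 autosomes. Chromosomes 9 and 13 had 11 each and chromosome 1 had 10. As a share of pairs under the same width and tag conditions they ran from 2 of 48 on chromosome 18, 4.17% (1.15 to 14.0), to 11 of 79 on chromosome 13, 13.9% (7.96 to 23.2). The intervals of 18 of the 19 chromosomes included the 7.90% of all autosomes, and that of chromosome 13 began just above it. No test was made between chromosomes. Neighbouring sites on a chromosome were a median of 11.3 Mb apart. In 5 cases successive sites were within 1 Mb of each other, the nearest at 111 kb on chromosome 4, between Tbr2 peaks at chr4:8726193-8727112 and chr4:8837617-8838355. The next were 129 kb apart, on chromosome 10.

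At the distance limit, the pairs just inside were at 201 bp on chromosome 13 (22 Neurog2 and 52 Tbr2 tags), 202 bp on chromosome 2 (23 and 46) and 202 bp on chromosome 9 (17 and 69). Those just outside were at 200 bp on chromosome 18 (20 and 125), 200 bp on chromosome 12 (15 and 49) and 199 bp on chromosome 12 (14 and 33). The widest Tbr2 peaks kept were 1199, 1197 and 1196 bp, and the narrowest left out were 1203, 1205 and 1205 bp. The tag condition removed 4 of 119 pairs. The largest of these was at chr13:52015720-52016259, where 103 Neurog2 tags with a fold change of 23.3 stood against 69 Tbr2 tags, and its Tbr2 peak also held an offset pair at 273 bp.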

How the data were processed

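The authors deposited 1 peak list for each ChIP library. Input peaks were not analysed here. The submitters' processing notes name Bowtie 0.12.3, MACS 1.4 and the build mm9. For tool settings, control and duplicate reads the entry is: not given in the sources used here. The position of a peak, its tags, its fold change and its p-value and FDR are the authors' own values, as deposited. The score column deposited with the lists is 750 throughout and was not used. Depth per library is unknown, so tags were not scaled between lists.

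Peaks were paired with python 3.11.15 and pandas 2.3.3, and the 2146 overlaps on all chromosomes matched those of bedtools 2.31.1. Coordinates are mm9, counted from 1. Pairing and the 200 bp limit were tested on simulated Neurog2 peaks, 1 per Tbr2 peak and less than 300 bp from its midpoint. That test did not cover the tag condition, larger distances or several Neurog2 peaks in the same Tbr2 peak. Shares have 95% Wilson intervals (scipy 1.17.1). Ranks are by p-value.

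Members and alternatives were chosen with earlier results of these data known. Regions named are the 10 pairs each of largest distance, most Tbr2 tags and most Neurog2 tags, those at the limits and Tbr2 peaks with 2 offset pairs; others were chosen after their values were seen. The gene and promoter tables at hand are GRCm38.p6, another build, so genes, motifs and sequences were not analysed here.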

Additional observations from a re-analysis of the deposited data

How the results depend on the processing

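The number of offset pairs followed the limits of the rule: 223 at a distance limit of 150 bp, 28 at 300 bp, 53 with Tbr2 peaks under 1000 bp and 356 with no width limit. The median distance was 202.5 bp at the 150 bp limit and 345.5 bp at the 300 bp limit. Neurog2 peaks wholly inside were 60.7% at 300 bp, 73.6% under 1000 bp and 95.2% with no width limit. A further Neurog2 peak in the Tbr2 peak was found at 46.4% of pairs at 300 bp. It was found at 0% once Neurog2 peaks under 500 bp apart were merged, by construction, which left 87 pairs. Another Tbr2 peak within 5 kb was found at 10.7% of pairs (3 of 28) at 300 bp, and the share was 13.0% within 2 kb and 35.7% within 10 kb. The cause was not tested except where a setting's construction shows it. The other 38 of 52 values stayed within the interval or quartiles of the reported value, or within 1.5 times the reported count. Among them were all values without the tag condition, with the nearest midpoint, with 50 bp of overlap, with a fold change of at least 8 and with 1 pair per Tbr2 peak. The last setting and the merging were added after seeing the data. The planned E-box, T-box and start-site results were not run. No paired analysis was possible because each factor had 1 library. Depth is unknown, so how many weak peaks were missed cannot be given.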
